A study of Mus musculus with 7 samples.

Results

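Mpo, Elane, Prtn3, Ctsg and Ms4a3 are genes of the neutrophil primary granule and of the promyelocyte that makes it. They were followed in cells that an antibody to CD41, the platelet glycoprotein IIb, had isolated from mouse bone marrow. The 5 genes were taken by symbol from the 19057 genes named on the array. Each was represented by its brightest probe, and all 5 were among the 5428 genes with a mean log2 signal of at least 7.5, the genes tested here. The array carried 9 singly named probes for them, 4 of Mpo, 2 of Ms4a3 and 1 of each of the others.

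The 4 5-HT samples came from adult male C57BL/6J mice, 10 to 12 weeks old, whose subcutaneous osmotic pumps delivered 5-HT (serotonin) for 24 h at 1.66 ug/kg/h from a 25.8 mM filling, and the 3 saline samples from mice of the same strain, sex and age that received saline for 24 h. Every sample pooled the marrow of 3 to 4 mice, was enriched on Percoll before the antibody was added, and was hybridized to 1 Illumina mouse array, so that differences between single mice were not measured. The study calls the isolated cells megakaryocytes (MKs), and that name is used here for the isolated cells as a whole.

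Primary, or azurophil, granules are the first granules that a neutrophil precursor fills. Their transcripts are made at the promyelocyte stage and are switched off before those of the secondary and tertiary granules appear, so mature neutrophils hold the proteins but little of the messenger RNA. In mouse marrow these transcripts therefore mark dividing granulocyte precursors and, at lower levels, granulocyte-monocyte progenitors, and they are not counted among MK markers.

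Mpo encodes myeloperoxidase, the heme enzyme that makes hypochlorous acid from hydrogen peroxide. Elane (neutrophil elastase), Prtn3 (proteinase 3) and Ctsg (cathepsin G) encode serine proteases that are stored in active form in the same granule. Ms4a3 encodes a membrane protein of the MS4A family that marks granulocyte-monocyte progenitors and the cells that follow them, and is not itself granule cargo. In the RefSeq annotation of mouse GRCm38.p6, Prtn3 and Elane are adjacent protein-coding genes on chromosome 10 and are followed by Cfd (adipsin, another serine protease). Ctsg lies on chromosome 14 between the mast cell protease gene Mcpt8 and the granzyme gene Gzme, Mpo on chromosome 11 beside Lpo, which encodes lactoperoxidase, and Ms4a3 on chromosome 19 beside Ms4a2.

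The 250 bases before the start of each gene are shown because they share a short motif. Whether the motif bears on the signals of the genes was not tested. Sequences are RefSeq's, build GRCm38.p6, 5′ to 3′ on the strand of the gene. Capitals mark GGAAGT, the core of sites bound by ETS factors such as PU.1, a factor that myeloid cells need.
Mpo, chr11:87793534-87793783, plus strand: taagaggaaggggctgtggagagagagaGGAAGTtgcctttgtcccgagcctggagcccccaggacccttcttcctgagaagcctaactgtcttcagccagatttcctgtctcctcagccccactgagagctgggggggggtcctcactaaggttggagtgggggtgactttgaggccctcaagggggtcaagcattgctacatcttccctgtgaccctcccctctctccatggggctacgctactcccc
Elane, chr10:79886062-79886311, plus strand: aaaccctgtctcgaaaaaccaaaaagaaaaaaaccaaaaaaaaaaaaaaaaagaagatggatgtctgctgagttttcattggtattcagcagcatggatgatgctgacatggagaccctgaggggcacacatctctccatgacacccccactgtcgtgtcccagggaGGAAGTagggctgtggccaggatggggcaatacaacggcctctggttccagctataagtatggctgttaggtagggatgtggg
Prtn3, chr10:79879417-79879666, plus strand: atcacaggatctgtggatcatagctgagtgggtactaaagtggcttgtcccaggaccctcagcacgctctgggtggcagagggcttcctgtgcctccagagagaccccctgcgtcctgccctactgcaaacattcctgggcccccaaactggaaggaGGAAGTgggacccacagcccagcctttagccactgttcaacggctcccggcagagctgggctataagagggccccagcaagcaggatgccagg
Ctsg, chr14:56102575-56102824, minus strand: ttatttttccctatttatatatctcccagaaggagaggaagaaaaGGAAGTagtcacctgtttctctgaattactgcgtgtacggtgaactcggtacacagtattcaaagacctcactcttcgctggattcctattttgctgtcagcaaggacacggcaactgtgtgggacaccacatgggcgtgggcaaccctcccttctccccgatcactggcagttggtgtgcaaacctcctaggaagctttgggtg
Ms4a3, chr19:11640852-11641101, minus strand: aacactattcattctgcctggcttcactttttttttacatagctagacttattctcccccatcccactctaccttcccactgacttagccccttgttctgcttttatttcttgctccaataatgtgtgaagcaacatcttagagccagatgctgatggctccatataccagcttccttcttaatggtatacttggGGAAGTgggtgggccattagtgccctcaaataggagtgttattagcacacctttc

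GGAAGT was found once in each of the 5 windows, always on the strand of the gene. It began 222 bases before the start in Mpo, 205 in Ctsg, 93 in Prtn3, 83 in Elane and 55 in Ms4a3. On either strand, GGAAGT or its reverse complement ACTTCC was present in 19.7% of the 32851 promoter windows of the same length. The motif was picked after the sequences had been read, so its presence in all 5 is a description. Of the other motifs searched on both strands, AACGG, a MYB core, was found in the neighbours Elane and Prtn3 and in 14.5% of all windows, and TATAA in Elane, Prtn3 and Ctsg and in 22.8%. The letters TTGCNNNAA were found in Ms4a3 and in 8.29%. They are not read as the site of a named factor. None of these matches overlapped another.

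The deposited log2 signals had the same median over all probes, 6.68, on every array, and the median of the tested genes ranged from 8.28 to 9.43 on the 5-HT arrays and from 8.15 to 8.99 on the saline arrays. Saline replicate 1, at 8.99, lay among the 5-HT arrays and 5-HT replicate 2, at 8.28, among the saline arrays. Over all tested genes the median log2 fold change, 5-HT minus saline, was 0.42, and 4957 genes (91.3%) were above 0. Quantile normalization moved this median to 0.07, cyclic loess normalization to 0.03 and scaling to the tested genes to -0.02, so the fold changes of single genes are read against it. The label of the cells was checked against 22 MK markers, of which 20 were measured and 16 passed the signal limit, among them Pf4, Itga2b (the CD41 gene) and Gp5. Itgb3 stayed between 6.64 and 7.15 on all arrays, near the median of all probes, and Clec1b, Thbs1 and Slc6a4 were also below the limit. The number of arrays limits the precision: the smallest p that 3 against 4 allows in an exact permutation test is 0.0286. The labels tell the replicates of a group apart by number alone. That each sample is a pool of mice comes from the study's methods. The exact p-values rest on the values of these pools alone. Those of limma draw also on the spread of all tested genes, with 18.9 prior against 5 residual degrees of freedom.

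Mpo had log2 signals of 15.07, 14.83, 14.87 and 14.89 in 5-HT MKs, against 14.46, 14.60 and 15.01 in saline MKs. The 5-HT samples lay close together, and saline replicate 3 was above all of them but 5-HT replicate 1, so the groups overlapped. Mpo averaged 14.92 ± 0.11 (SD, n = 4) in 5-HT MKs and 14.69 ± 0.29 (SD, n = 3) in saline MKs, a log2 fold change of 0.23 with a 95% interval from -0.52 to 0.97 (adjusted p = 0.707 in limma). The two-sided exact permutation test of the same difference gave p = 0.2. These signals were near the top of each array: the highest signal of any probe was 0.20 to 0.60 above Mpo on the 5-HT arrays and 0.33 to 0.90 above it on the saline arrays.

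Elane had log2 signals of 14.51, 14.29, 14.04 and 14.09 in 5-HT MKs, against 13.51, 13.86 and 14.17 in saline MKs. Saline replicates 1 and 2 were below every 5-HT sample, while saline replicate 3 was above 5-HT replicates 3 and 4. Its mean was 14.23 ± 0.21 (SD, n = 4) in 5-HT MKs and 13.85 ± 0.33 (SD, n = 3) in saline MKs. The log2 fold change of 0.39, with a 95% interval from -0.37 to 1.14 (adjusted p = 0.591 in limma; exact permutation p = 0.143), was the largest of the 5 genes on the deposited values. It was 0.03 below the median of all tested genes, and 0.10 above that median after quantile normalization. On the deposited values 45.3% of all tested genes had a smaller fold change.

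Prtn3, the neighbour of Elane, had log2 signals of 14.63, 14.55, 14.16 and 14.12 in 5-HT MKs, against 13.91, 14.29 and 14.57 in saline MKs. The 5-HT samples fell into a higher pair, replicates 1 and 2, and a lower pair, replicates 3 and 4, with saline replicate 2 between the pairs. The log2 fold change was 0.11, with a 95% interval from -0.65 to 0.87 (adjusted p = 0.853 in limma; exact permutation p = 0.629).

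Ctsg had log2 signals of 14.16, 13.90, 13.41 and 13.69 in 5-HT MKs, against 13.31, 13.68 and 14.17 in saline MKs. Each group covered nearly the same range, and the highest value of all was that of saline replicate 3. The log2 fold change was 0.07, with a 95% interval from -0.71 to 0.85 (adjusted p = 0.905 in limma; exact permutation p = 0.771).

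Ms4a3, the membrane protein gene, had log2 signals of 12.35, 12.60, 11.83 and 11.93 in 5-HT MKs, against 11.36, 12.34 and 12.50 in saline MKs. Saline replicate 1 was below all other arrays, and saline replicates 2 and 3 lay in the range of the 5-HT samples. The mean was 12.18 ± 0.36 (SD, n = 4) in 5-HT MKs and 12.07 ± 0.62 (SD, n = 3) in saline MKs. The log2 fold change was 0.11, with a 95% interval from -0.70 to 0.92 (adjusted p = 0.857 in limma; exact permutation p = 0.8).

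**Figure D1:**
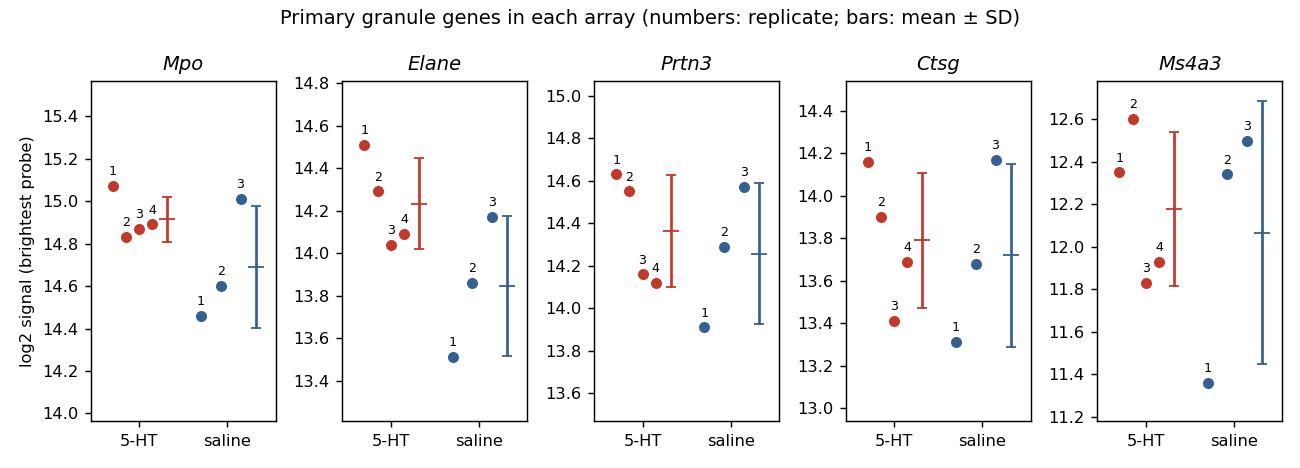
Log2 signal of the brightest probe of each gene in the 4 5-HT and 3 saline arrays. Points are arrays numbered by replicate, bars are the group mean ± SD, and every panel spans the same number of log2 units. Saline replicate 1 is the lowest array in all 5 panels and the groups overlap in each.

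No granule gene of the 5 reached an adjusted p under 0.05 in limma, and 0 of the 5428 tested genes (0%) did in any direction, while 311 (5.73%) had an unadjusted p under 0.05. By a change of more than 1.5-fold at an unadjusted p below 0.05, the study's limits with its p read as unadjusted, 310 genes (5.71%) were higher and 1 (0.0184%) lower in 5-HT MKs, and 0 of the 5 were among them. The same counts were 65 higher and 94 lower after quantile normalization, 41 and 104 after cyclic loess, and 52 and 129 after scaling to the tested genes. All 5-HT samples exceeded all saline samples in 341 tested genes (6.28%) and were below them in 7 (0.129%), and again 0 of the 5 were among them. The number of genes higher by the fold and unadjusted p rule lay between 49 and 1689 when any 1 array was left out. The number without overlap became 1941 without saline replicate 1 and 1686 without 5-HT replicate 2, and the 5 genes gave 0 calls under every setting tried. The 95% interval of each of the 5 genes included 0. The lowest bound was -0.71, for Ctsg, and the highest 1.14, for Elane. This fit could not tell apart the changes within a gene's own interval. The width of the intervals depends on the spread that limma shares between genes. The standard error of Mpo was 0.36 here, 0.21 in the robust fit with a trend and 0.14 with dim genes kept.

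On the deposited values the 5 fold changes had a median of 0.11 and all lay below the median of all tested genes, by 0.03 for Elane, 0.19 for Mpo, 0.31 for Prtn3 and Ms4a3 and 0.35 for Ctsg. This position depended on the setting. After quantile normalization 3 of the 5 were below that median, with Elane 0.10 and Mpo 0.01 above it, and 3 were below it without saline replicate 3. After scaling to the tested genes, or cyclic loess, the 5 fold changes themselves were below 0, from -0.37 for Ctsg to -0.05 for Elane and from -0.37 to -0.04. Without saline replicate 1 the fold changes of Prtn3, Ctsg and Ms4a3 were -0.07, -0.14 and -0.24. Ctsg was also below 0, at -0.05, without 5-HT replicate 1, and Ms4a3, at -0.03, without 5-HT replicate 2. Without both saline replicate 1 and 5-HT replicate 2, a choice made after seeing the arrays, the 5 genes lay below the all-gene median of 0.83 by 0.63 for Elane, 0.69 for Mpo, 0.95 for Prtn3, 0.998 for Ctsg and 1.21 for Ms4a3, and none passed an adjusted p under 0.05 while 3071 of the tested genes did.

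**Figure D2:**
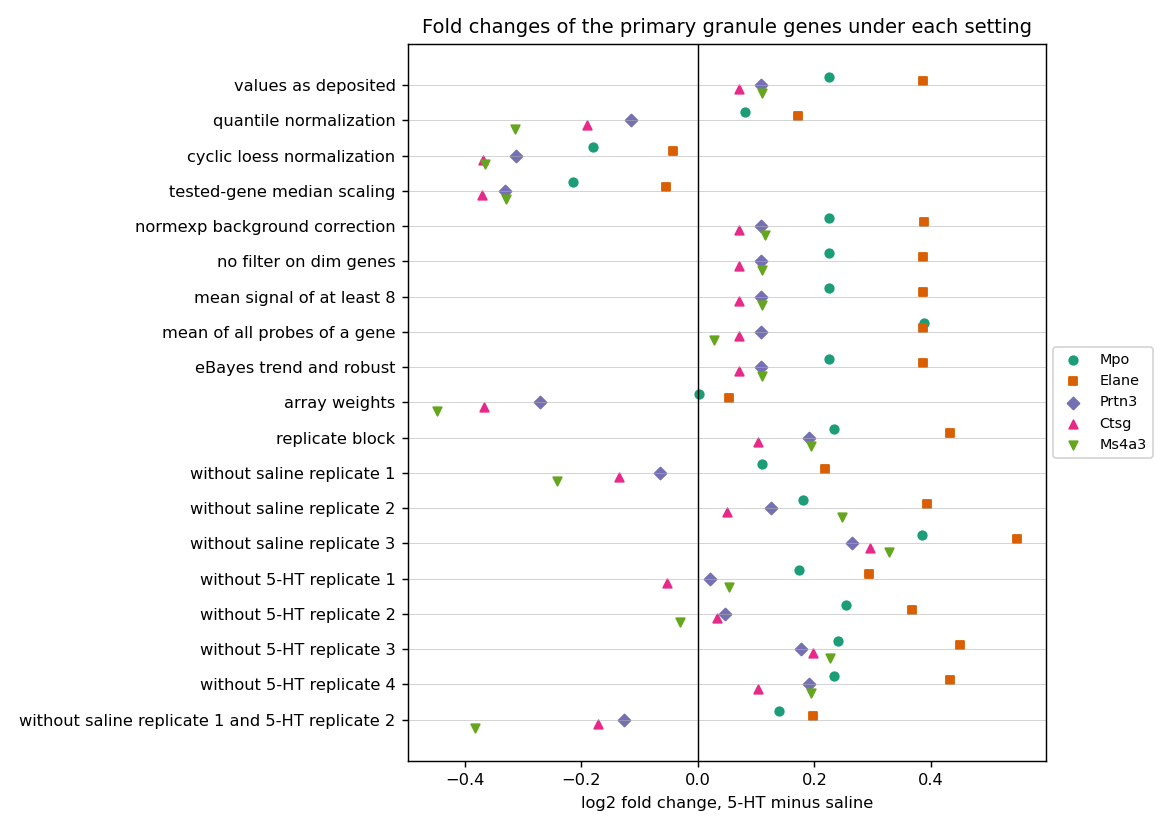
Log2 fold change, 5-HT minus saline, of each gene (symbols) under each processing setting. On the deposited values all 5 are above 0, and with cyclic loess or tested-gene scaling all 5 are below 0, while no gene passed an adjusted p under 0.05 under any setting.

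The difference between the group means was smaller than the span of either group for each of the 5 genes. The span over the 4 5-HT samples was 0.24 for Mpo, 0.47 for Elane, 0.51 for Prtn3, 0.75 for Ctsg and 0.77 for Ms4a3. Over the 3 saline samples it was 0.55 for Mpo, 0.66 for Elane and Prtn3, 0.86 for Ctsg and 1.14 for Ms4a3. The pooled SD within groups was 0.20 for Mpo, 0.27 for Elane, 0.29 for Prtn3, 0.37 for Ctsg and 0.48 for Ms4a3, against a median of 0.49 over all tested genes and 0.33 over the tested genes with a mean log2 signal of at least 12. The difference between the group means was larger than this SD in Mpo and Elane and smaller in the others.

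The arrays came in much the same order for each gene. Saline replicate 1 was the lowest of the 7 arrays for all 5 genes, a position it held in 334 tested genes (6.15%) and in 78 of the 237 tested genes with a mean log2 signal of at least 12 (32.9%). Saline replicate 3 was the highest saline array for all 5, as in 760 tested genes (14%) and 115 of those 237 bright genes (48.5%). 5-HT replicates 1 and 2 were both above 5-HT replicates 3 and 4 in Elane, Prtn3, Ctsg and Ms4a3, as in 307 tested genes (5.66%) and 47 of the 237 bright genes (19.8%), and in Mpo 5-HT replicate 2 was instead the lowest 5-HT sample. With each gene centred on its own mean, the average of the 5 was 0.33, 0.22, -0.16 and -0.08 in the 5-HT samples, against -0.51, -0.07 and 0.27 in the saline samples. The tested genes as a whole went the other way in saline, where replicate 1 had the highest median.

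Values set against the array's own tested genes depend on the median that is subtracted, which was 9.43, 8.28, 8.96 and 9.03 in the 5-HT samples and 8.99, 8.15 and 8.32 in the saline samples. A gene with the same signal on every array would stand highest in 5-HT replicate 2 and saline replicates 2 and 3. Mpo was above the array median of the tested genes by 5.64, 6.55, 5.91 and 5.86 in the 5-HT samples, against 5.47, 6.45 and 6.69 in the saline samples. Ms4a3 was above it by 2.92, 4.32, 2.87 and 2.90 in the 5-HT samples, against 2.37, 4.19 and 4.18 in the saline samples. In all 5 genes, 5-HT replicate 2 and saline replicates 2 and 3 had the highest such values, and saline replicate 1 the lowest. The first 3 are the arrays with the lowest subtracted medians. The average over the 5 was 4.71, 5.75, 4.70 and 4.71 in the 5-HT samples and 4.32, 5.60 and 5.77 in the saline samples.

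**Figure D3:**
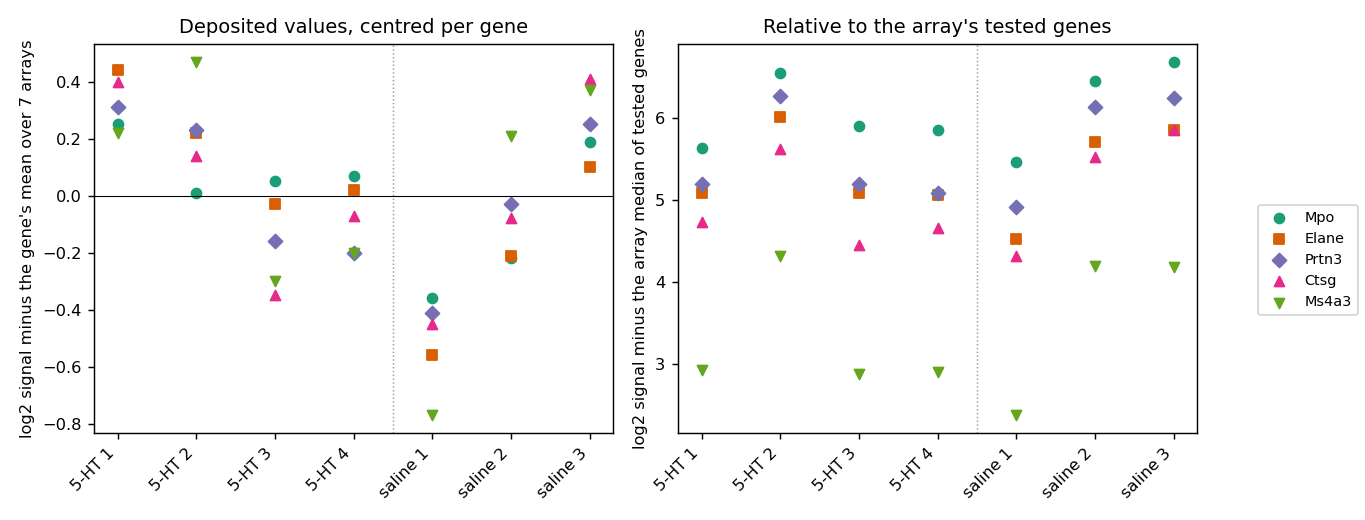
The 5 genes (symbols) in each array, on the left as log2 signal minus the mean of the gene over the 7 arrays and on the right as log2 signal minus the median of the tested genes of that array. On the right, 5-HT replicate 2 stands with saline replicates 2 and 3, between 4.18 and 4.32 for Ms4a3. These are the 3 arrays with the lowest subtracted medians, and the other 4 arrays lie between 2.37 and 2.92 for that gene.

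MK markers varied with the same arrays. The mean log2 signal of the 16 tested MK markers was 11.28, 9.02, 10.11 and 11.31 in the 5-HT samples and 11.13, 9.05 and 8.96 in the saline samples, so it was lowest in the arrays with the lowest tested-gene medians. The summed unlogged signal of all 20 measured MK markers ranged from 17722 to 69382 in the 5-HT samples and from 17420 to 59736 in the saline samples. For the 5 granule genes this sum ranged from 79620 to 106610 in the 5-HT samples and from 62380 to 99977 in the saline samples. Itga2b had 11.90, 9.36, 11.27 and 12.29 in 5-HT MKs, against 12.15, 9.17 and 8.86 in saline MKs. Monocyte markers differed between arrays likewise, with means over 12 tested genes of 10.26, 8.49, 9.97 and 9.64 in the 5-HT samples and 10.80, 8.38 and 8.58 in the saline samples. The part of these markers in the values of the granule genes was not tested, and in pools of cells, fewer cells of a type and less RNA per cell cannot be told apart.

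The 4 named probes of Mpo did not rank the arrays alike. The brightest, whose values are given above, and the next, with 15.11, 14.80, 14.90 and 14.72 in 5-HT MKs against 14.39, 14.54 and 14.90 in saline MKs, both put saline replicate 1 lowest. The third probe had 14.18, 13.42, 13.49 and 13.54 in 5-HT MKs, against 13.34, 13.08 and 13.26 in saline MKs, and with it the groups did not overlap. By their brightest probes, 6.28% of all tested genes had every 5-HT sample above saline. That share was not counted over all named probes. The dimmest had 12.75, 11.58, 11.52 and 12.62 in 5-HT MKs, against 11.98, 11.00 and 11.50 in saline MKs, with saline replicate 1 the highest saline sample. The fold changes of the 4 probes were 0.23, 0.27, 0.43 and 0.62 from the brightest to the dimmest, with standard errors of 0.36, 0.36, 0.37 and 0.41, and the adjusted p-values in limma over 7142 named probes were 0.719, 0.674, 0.595 and 0.588. The 4 probes were read on the same arrays, so these errors do not measure the differences between probes, which were not tested.

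The distance between the dimmest and the brightest Mpo probe also varied between arrays. It was -2.32, -3.25, -3.35 and -2.27 in the 5-HT samples, against -2.48, -3.60 and -3.51 in the saline samples, so it was narrow in 5-HT replicates 1 and 4 and in saline replicate 1.

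**Figure D4:**
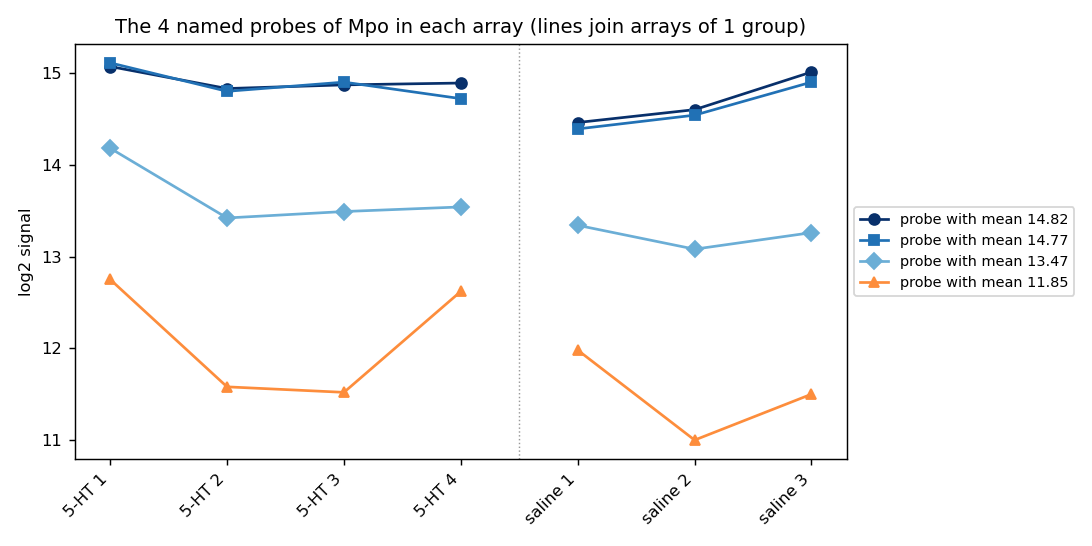
Log2 signal of the 4 singly named probes of Mpo in each array, with lines joining arrays of a group. The 2 bright probes stay between 14.39 and 15.11, and the dimmest ranges from 11.00 to 12.75, with its highest values in 5-HT replicates 1 and 4.

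Ms4a3 had a second probe, with 11.92, 12.01, 10.61 and 11.58 in 5-HT MKs, against 11.15, 11.44 and 12.17 in saline MKs. Here 5-HT replicate 3 was the lowest array and saline replicate 3 the highest. Its log2 fold change was -0.06 (standard error 0.41, adjusted p = 0.931 in limma), so the sign of the Ms4a3 difference depended on the probe. Elane, Prtn3 and Ctsg had no second named probe.

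The genes that surround the primary granule were compared next. Of 29 listed genes for its other contents, processing, storage and inhibition, 23 were measured and 19 tested, and 0 passed an adjusted p under 0.05 in limma. By the fold and unadjusted p rule 3 (Fcnb, Slpi and Stfa2) were higher and 0 lower, against 5.71% and 0.0184% of all tested genes. These shares over all genes changed with the scaling, as given above. Ctsc, the dipeptidyl peptidase that activates the granule serine proteases, had 11.29, 8.73, 10.09 and 9.98 in 5-HT MKs, against 11.15, 8.80 and 9.05 in saline MKs, with the lowest value in 5-HT replicate 2, unlike the proteases it acts on. Serpinb1a, an inhibitor of these proteases, differed by 0.54 on the log2 scale (standard error 0.38), and Srgn, the proteoglycan serglycin that packs granule proteins, by -0.13 (standard error 0.43). The lysozyme gene Lyz2 had 14.29, 13.99, 14.04 and 13.85 in 5-HT MKs, against 13.56, 13.65 and 13.62 in saline MKs, with no overlap and a log2 fold change of 0.43 (standard error 0.36). Slpi, the secretory leukocyte protease inhibitor, which blocks elastase and cathepsin G, averaged 13.55 ± 0.48 (SD, n = 4) in 5-HT MKs and 12.61 ± 0.18 (SD, n = 3) in saline MKs, a log2 fold change of 0.93 (adjusted p = 0.563 in limma). The median of the 19 was 0.41, close to that of all tested genes.

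Among 23 listed transcription factors of granulocyte development, 15 were tested and 0 passed an adjusted p under 0.05 in limma. By the fold and unadjusted p rule 3 (Cebpe, Spi1 and Klf5) were higher and 0 lower, against 5.71% and 0.0184% of all tested genes. Cebpe, which drives the step from primary to secondary granules, had 12.64, 11.98, 12.57 and 11.75 in 5-HT MKs, against 11.03, 11.45 and 11.53 in saline MKs. The groups did not overlap, as in 6.28% of all tested genes, and its log2 fold change was 0.90 (standard error 0.38, adjusted p = 0.563 in limma). For Gfi1, a repressor needed for neutrophil development, the difference was 0.48 (standard error 0.37). Cebpa and Myb, which act at the promyelocyte stage and before it, were below the signal limit, with 6.61 to 6.87 and 6.80 to 7.27 over all arrays, so they could not be compared. The median of the 15 was 0.45.

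The genes of the next granules gave other values than those of the first. Of 23 listed genes of secondary and tertiary granules, 17 were tested and 0 passed an adjusted p under 0.05 in limma. By the fold and unadjusted p rule 5 (Chil1, Mmp9, Cd177, Itgb2l and Cnn2) were higher and 0 lower, against 5.71% and 0.0184% of all tested genes. In 8 of the 17 the 5-HT samples were all above the saline samples, as in 6.28% of all tested genes, a count over all genes that became 1941 without saline replicate 1, 1686 without 5-HT replicate 2, 169 after cyclic loess and 171 after scaling to the tested genes. Ltf (lactoferrin) had 15.13, 14.98, 15.30 and 15.26 in 5-HT MKs, against 14.84, 14.74 and 14.72 in saline MKs, with no overlap. Its signal was also near the top of the arrays. Camp (cathelicidin) had 13.96, 13.81, 13.76 and 13.84 in 5-HT MKs, against 13.45, 14.02 and 14.38 in saline MKs, with saline replicate 1 lowest and saline replicate 3 highest. Late neutrophil genes such as S100a8 and S100a9 had log2 fold changes of 0.00 and -0.01 (standard error 0.36 each). Of the 11 tested, 2 (Retnlg and Asprv1) were higher by the same rule, again against 5.71% of all tested genes. The list medians were 0.60 for the secondary and tertiary granules and 0.53 for the late neutrophil genes, against 0.11 for the primary granule genes. The difference between the lists was not tested.

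**Figure D5:**
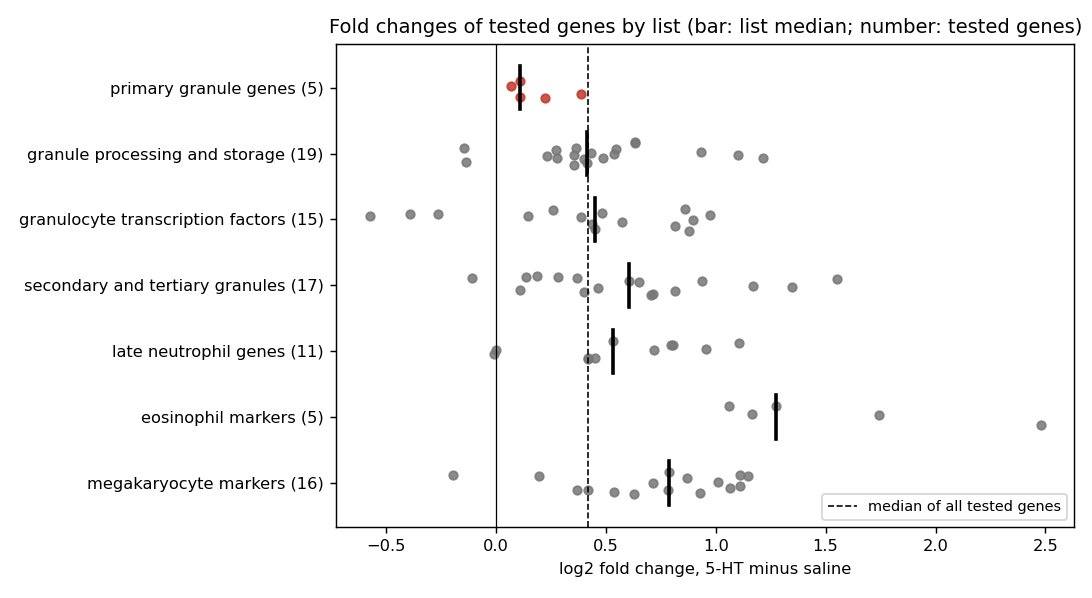
Log2 fold change, 5-HT minus saline, of each tested gene (points) in 7 lists, with the list median as a bar and the median of all tested genes, 0.42, as a dashed line. On these deposited values the 5 primary granule genes lie between 0.07 and 0.39, with a median of 0.11, and the 5 tested eosinophil markers between 1.06 and 2.48. Of the latter, Prg3 and Ear6 passed the signal limit only through the 5-HT samples.

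Of 15 listed eosinophil markers, genes of another granule, 10 were measured and 5 tested, the other measured genes being below the signal limit. On the deposited values the tested 5 stood farther from the all-gene median, with a list median of 1.28. By the fold and unadjusted p rule 5 of the 5 were higher, against 5.71% of all tested genes. Prg3 and Ear6 passed the signal limit only through the 5-HT samples, so their place in this count and median rests on the 5-HT signals. Prg2, the eosinophil major basic protein, had 14.02, 10.72, 10.75 and 12.56 in 5-HT MKs, against 10.25, 8.86 and 9.49 in saline MKs, so 5-HT replicates 2 and 3 lay close to saline replicate 1. 5-HT replicate 1 was the highest array for Mpo, Elane and Prtn3 too, as in 3406 of all tested genes (62.7%). Genes of dividing cells, a property of promyelocytes shared by other marrow cells, had a median of 0.43 over 15 tested genes, with 0 past the rule. Over the 237 bright genes, which include the 5, the fold changes had a median of 0.37 and quartiles of 0.17 and 0.61.

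The tested genes whose profiles came nearest to the average profile of the 5 were found by the root mean square difference over the 7 arrays, each profile centred on its own mean. They were Rpl36a at 0.04, Rpl38 at 0.08, Rps10 and Rps21 at 0.09, which encode cytosolic ribosomal proteins, and Ndufs6 at 0.09, a subunit of respiratory complex I. The median of all tested genes was 0.57. The 5 genes themselves were at 0.06 for Prtn3, 0.10 for Ctsg, 0.11 for Elane, 0.15 for Mpo and 0.20 for Ms4a3, and they form the average they were compared with. Rpl36a had 12.88, 12.68, 12.35 and 12.47 in 5-HT MKs, against 11.92, 12.45 and 12.72 in saline MKs, the same order of arrays within each group as Elane. These likenesses are descriptions over 7 arrays that share their scaling.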

How the data were processed

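The authors exported the signals of an Illumina mouse BeadChip from GenomeStudio, log-transformed them and shifted each array to 1 median, leaving out 1 control sample as an outlier. These deposited log2 values (45281 probes, 7 arrays) were used as they are. The log base was read from their range, and background subtraction and software versions are not given in the sources used here. Their 1 table of signals before normalization was not used, since none of its 14 value columns could be tied to a sample by name. Gene names came from GEO's platform annotation, in which 34885 probes had 1 symbol, 18 several and 10378 none listed. The brightest probe stood for a gene, and genes with a mean log2 signal of at least 7.5 were tested. This takes the place of the mean-expression limit in the study's methods.

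Groups were compared with limma 3.58.1 (lmFit, eBayes; R 4.3.3) without covariates, at 5 residual degrees of freedom and 18.9 from the prior, and p-values were adjusted over all tested genes after Benjamini and Hochberg. Standard errors are limma's moderated ones. Exact permutation tests over the 35 splits were run in Python 3.11.15. The code was tried on simulated data with noise independent between genes and changes larger than those of the 5 genes. The shifts that genes share on these arrays were not simulated. The trial therefore cannot say how the procedure handles them or such small changes. Genes and lists were chosen with earlier results of these data known. Members of the granule set were named with all probes. From each other list, the 4 brightest tested genes, genes past an adjusted p of 0.05 and 10 genes set by name could be named, with the 5 nearest profiles. Fcnb, Stfa2, Spi1, Klf5, Chil1, Mmp9, Cd177, Itgb2l, Cnn2, Asprv1, Prg3 and Myb were named after their values were seen. So were the MK markers Itgb3, Clec1b, Thbs1 and Slc6a4.

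Alternatives were quantile and cyclic loess normalization, scaling to the tested genes, normexp, other signal limits, averaging all probes of a gene, a robust eBayes fit with a trend, array weights (gene by gene, since the default did not converge), a replicate block and leaving out each array. The fit without both saline replicate 1 and 5-HT replicate 2 was added after seeing the data.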

Additional observations from a re-analysis of the deposited data

Results flagged for a closer look

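In 67 groups of 4 5-HT samples examined with Dixon's test, 4 had a sample far from the other 3, where chance flags about 1 in 20. The average of the 5 genes above the array median of the tested genes was 5.75 in 5-HT replicate 2, against 4.70 to 4.71 in the other 5-HT samples. The array median subtracted there was 8.28, against 8.96 to 9.43 in the others, while the 5 genes centred on their own means averaged 0.22 in 5-HT replicate 2 and 0.33 in 5-HT replicate 1. The third probe of Mpo was at 14.18 in 5-HT replicate 1, against 13.42 to 13.54. The basophil protease genes Prss34 and Mcpt8, the second a neighbour of Ctsg, were at 12.00 and 10.39 in 5-HT replicate 1, while the other 5-HT samples had 6.93 to 7.40 and 6.95 to 7.28.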

How the results depend on the processing

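No setting brought any of the 5 genes past an adjusted p under 0.05 in limma. Adjusted p-values ran from 0.0825 to 0.998 over 94 alternative estimates, each of 1 gene under 1 setting or with another probe. In 25 of these estimates the sign of the fold change was turned. Quantile normalization gave -0.11 for Prtn3, -0.19 for Ctsg and -0.31 for Ms4a3, with 65 genes higher and 94 lower by the fold and unadjusted p rule and 3 of the 5 genes below the all-gene median. Cyclic loess gave -0.18 for Mpo, -0.043 for Elane, -0.31 for Prtn3, -0.37 for Ctsg and -0.37 for Ms4a3, a median of -0.31, 41 genes higher, 104 lower and 169 with every 5-HT sample above saline. Scaling to the tested genes gave -0.22 for Mpo, -0.054 for Elane, -0.33 for Prtn3, -0.37 for Ctsg and -0.33 for Ms4a3, a median of -0.33, 52 genes higher, 129 lower and 171 above without overlap. Array weights gave -0.27 for Prtn3, -0.37 for Ctsg and -0.45 for Ms4a3, a median of -0.27, 3570 genes past the adjusted p, 3071 higher and 115 lower. The second probe of Ms4a3 gave -0.057. Without saline replicate 1 and 5-HT replicate 2 together, a choice made after seeing the data, Prtn3 was -0.13, Ctsg -0.17 and Ms4a3 -0.38, with 3071 genes past the adjusted p, 3498 higher, 45 lower and 4068 above without overlap, against a median of all genes of 0.83. Normexp left 200 genes higher. With dim genes kept, 3 were lower, 653 were above without overlap and 0 of the 5 lay below the all-gene median. With the mean of a gene's probes, 0 were lower and 3 of the 5 lay below that median. With trend and robust, 3 genes passed the adjusted p and 2 were lower. The causes were not tested.

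The replicate block, which takes 5-HT replicate 4 out of the comparison, gave 45 genes past the adjusted p, 1226 higher and 15 lower, and fold changes of 0.23 for Mpo and 0.43 for Elane. The labels do not say whether the numbers pair the samples. Deviations from the group means of replicates 1, 2 and 3 correlated at 0.145, 0.684 and -0.247 over genes. Saline replicates 1 and 3 correlated best with other numbers than their own. Such deviations are tied to one another within a group, so these values cannot settle whether samples were paired.

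Leaving out 1 sample at a time, the fold change ranged from 0.11 to 0.39 for Mpo, 0.22 to 0.55 for Elane, -0.07 to 0.27 for Prtn3, -0.14 to 0.30 for Ctsg and -0.24 to 0.33 for Ms4a3, in each case lowest without saline replicate 1 and highest without saline replicate 3. Their median ranged from -0.07 to 0.33 and that of all genes from 0.26 to 0.64. From 3 to 5 of the 5 genes lay below the all-gene median. Genes past the adjusted p ranged from 0 to 77 (without saline replicate 1), genes higher by the rule from 49 (without saline replicate 2) to 1689 (without 5-HT replicate 2), genes lower from 0 to 32 (without 5-HT replicate 1) and genes above without overlap from 354 to 1941 (without saline replicate 1). The number of arrays limits what could be seen. Whether signals near the top of the arrays, as those of Mpo, narrowed any difference was not tested.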
